A study of Homo sapiens with 20 samples.

Results

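Untreated cells of 3 acute myeloid leukemia (AML) lines and 2 endothelial lines were compared, in 5 of the 20 libraries of a study of resting and cytokine-treated cells. They were taken by their labels, as every library that had received no cytokine. The AML lines were Kasumi-1, which is known for its RUNX1-RUNX1T1 fusion, and NOMO-1 and THP-1, 2 lines of monocytic type known for a KMT2A fusion. The endothelial lines were iHUVEC, whose derivation no source used here states, and TIME, a microvascular line known to have been immortalised with telomerase. All were grown in standard media with supplements. Any difference of culture between the groups, like malignancy, cannot be told apart from cell type in this design. Each line gave 1 library of total RNA, so a line is the replicate, and p-values measure the spread between lines.

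Leukocytes and endothelial cells both arise from mesoderm and share several early regulators, such as TAL1, GATA2, RUNX1 and LMO2. Myeloid identity is built around the transcription factor PU.1, encoded by SPI1, with the C/EBP family, and immature myeloid cells load their primary granules with serine proteases. Endothelial cells instead form a sealed, adherent layer: they join through VE-cadherin, rest on a basement membrane that they secrete, carry caveolae and regulate clotting at their surface.

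The unit is TPM, a length-corrected share of transcripts, rescaled in each library after the removal of 13 mitochondrial genes. These genes held 76.0% of the deposited TPM in NOMO-1 and 15.6 to 24.8% in the other libraries. In NOMO-1, 28.2% of the TPM of protein-coding genes lay in retained-intron, processed or nonsense-mediated-decay transcripts, against 11.6 to 13.8% in the other libraries. By quartile of transcript length, from the shortest to the longest genes, the median difference of NOMO-1 from the endothelial mean went from -0.40 to -1.15 log2, that of THP-1 from 0.02 to -0.79 and that of Kasumi-1 from -0.21 to -0.30. The part of these library properties in the differences below was not tested. By the same quartiles, the share of genes called lower in AML lines, as tested below, went from 4.06 to 9.05%. The share called higher went from 1.86 to 1.13%. Between 11831 and 12474 genes reached 1 TPM per library. TPM keeps no total, so depth is unknown and a gene listed at 0 may have been missed.

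The label of each group was checked against marker genes. Of 16 endothelial markers, 16 reached 1 TPM in both endothelial libraries and 4 to 6 in the AML libraries, with summed levels of 5533 and 5793 TPM against 66.8 to 454 TPM. Of 12 leukocyte markers, 11 reached 1 TPM in every AML library, 4 in iHUVEC and 8 in TIME. Their summed level was 1339 to 2982 TPM in AML libraries, against 58.2 TPM in iHUVEC and 156 TPM in TIME. The leukocyte level of TIME came mostly from LAPTM5, a lysosomal membrane protein of blood cells, which stood at 137 TPM there, whereas the defining marker PTPRC (CD45) was at 0.0671 TPM. By the summed levels, no library went against its label.

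Sequences around start sites of genes that parted the groups most are shown for the motifs in them. From RefSeq (GRCh38.p14), the 250 bases before and 50 bases from the start site of PRTN3 and CTSG, genes of granule proteases, are given with capitals marking GAGGAAG or its reverse complement, a core bound by PU.1. They are the 2 highest-ranked genes in the table that hold it, and 1475 of 10265 tested genes with a promoter in the table did (14.4%). Among the 10 genes most strongly higher in AML lines, GTSF1 also held it. S100A4, ARMH1, PLPPR3, RNASE2 and PARVG held none, and ELANE and SPI1 had no promoter in the table.
PRTN3, chr19:840749-841048, plus strand: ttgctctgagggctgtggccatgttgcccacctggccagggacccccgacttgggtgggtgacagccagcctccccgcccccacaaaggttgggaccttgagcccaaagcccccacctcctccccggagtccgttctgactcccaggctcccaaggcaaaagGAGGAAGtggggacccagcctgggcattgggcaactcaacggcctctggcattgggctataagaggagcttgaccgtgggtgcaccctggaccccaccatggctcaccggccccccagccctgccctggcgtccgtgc
CTSG, chr14:24576201-24576500, minus strand: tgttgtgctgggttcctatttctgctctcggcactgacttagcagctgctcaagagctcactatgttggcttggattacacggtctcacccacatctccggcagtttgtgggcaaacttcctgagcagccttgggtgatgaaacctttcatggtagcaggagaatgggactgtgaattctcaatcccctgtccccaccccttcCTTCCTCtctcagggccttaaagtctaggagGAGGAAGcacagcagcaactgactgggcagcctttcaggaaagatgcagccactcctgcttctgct
Among the 10 genes most strongly lower in AML lines, those with a promoter in the table held no copy of the general ETS core CCGGAAG in this window. The promoter of CCN2, which encodes a secreted matricellular protein controlled by YAP and TEAD, was therefore chosen after its values were seen, with capitals marking GGAATGT, a TEAD core. S100A16, another of the 10, also held 1 copy of this core, and THBS1, CD9, MCAM and CAV1 held none.
CCN2, chr6:131951323-131951622, minus strand: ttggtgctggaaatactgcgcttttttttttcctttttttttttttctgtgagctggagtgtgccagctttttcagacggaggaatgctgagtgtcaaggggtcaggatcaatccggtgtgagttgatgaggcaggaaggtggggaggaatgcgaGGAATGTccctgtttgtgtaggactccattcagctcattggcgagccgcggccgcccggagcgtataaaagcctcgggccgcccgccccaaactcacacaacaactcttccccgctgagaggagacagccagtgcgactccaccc
The capitals begin 88 bases before the start site in PRTN3, 47 and 16 bases before it in CTSG and 95 bases before it in CCN2.

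The largest differences lay on the endothelial side. Of 13542 genes tested with limma at an adjusted p under 0.05, 186 were higher in AML lines (1.37%) and 844 were lower (6.23%), together 1030 (7.61%). Differences below are log2(TPM + 1) of AML minus endothelial lines ± the moderated standard error, and their median for all genes tested was -0.38. A switch-like pattern was taken as at least 10 TPM in every library of one group and under 1 TPM in every library of the other. Of the 13542 tested genes, 73 were on in AML lines and 240 on in endothelial lines. With a limit of 20 TPM these were 44 and 155 genes. On TPM as deposited the numbers were 41 and 283. In bulk RNA, fewer cells of a type and less RNA per cell cannot be told apart.

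**Figure D1:**
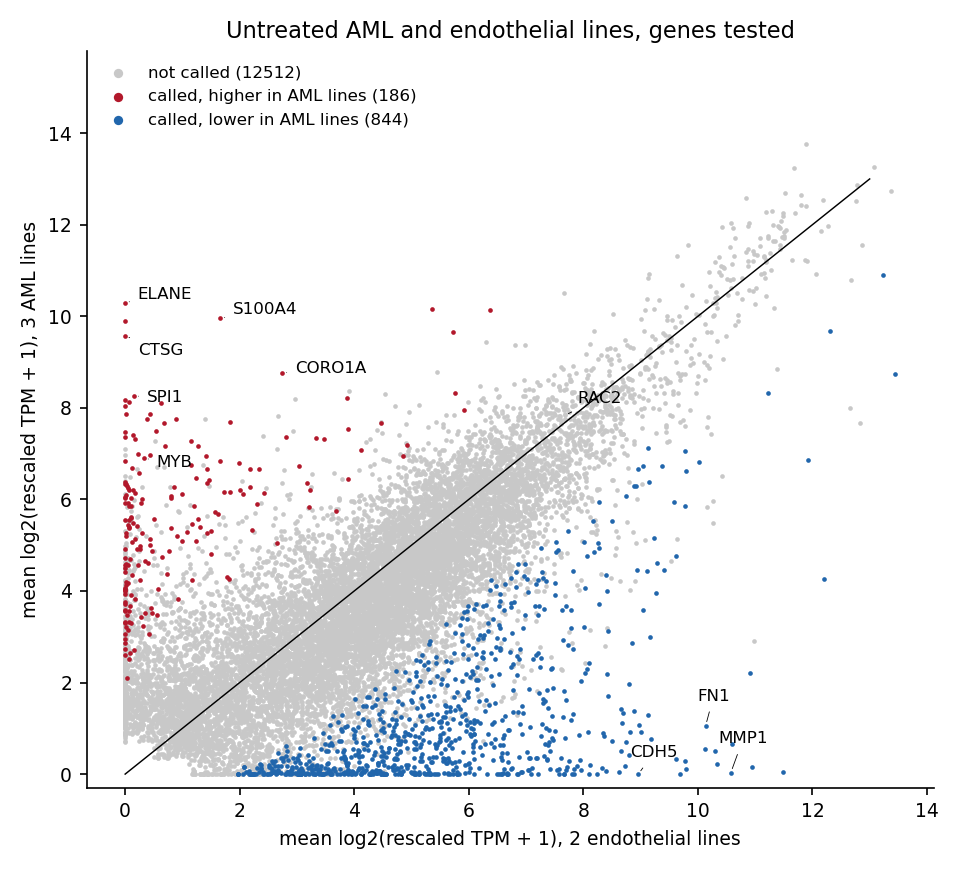
Each point is a tested gene at its mean log2(rescaled TPM + 1) over 2 endothelial lines (horizontal) and 3 AML lines (vertical), with the diagonal marking equal levels. Red points (186) were called higher and blue points (844) lower in AML lines, and the blue points spread along the bottom at high endothelial levels.

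The call counts rest on both endothelial libraries. Without iHUVEC 9 genes were called and without TIME 11, with the lone endothelial library assumed to vary like the AML lines, whose median SD per gene was 0.79 log2 against 0.24 for the endothelial pair. Without Kasumi-1 the count was 1625, without NOMO-1 1323 and without THP-1 469. The counts for gene lists below move with these: no list of function kept more than 2 calls in either direction without iHUVEC or without TIME, and without THP-1 the leukocyte signalling list went from 16 to 8 higher genes and the vascular receptor list from 20 to 11 lower genes. The 9 genes called under every alternative were ELANE, PRTN3, SPI1, PLPPR3, PTPN7 and PLD4 on the higher side and CD9, CCN2 and FN1 on the lower. The endothelial lines differed from each other by a median of 0.33 log2 per gene, and the AML lines by 0.68 to 1.21. On this measure Kasumi-1 was nearest to THP-1 (0.68), and nearer to iHUVEC (0.73) than to NOMO-1 (1.21). NOMO-1 was also the line farthest from iHUVEC (1.46) and from TIME (1.44).

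Granule protease genes had the largest differences on the AML side. ELANE, which encodes neutrophil elastase, stood at 1935, 353 and 2904 TPM in Kasumi-1, NOMO-1 and THP-1, in the order used throughout, and was listed at 0 in iHUVEC and TIME (10.30 ± 0.93, adjusted p = 0.00357). PRTN3, the gene of proteinase 3, followed with 1378, 316 and 1978 TPM and also 0 in both endothelial libraries (9.90 ± 0.83, adjusted p = 0.00313). CTSG, which encodes cathepsin G, had 261, 412 and 4073 TPM and 0 (9.57 ± 1.17, adjusted p = 0.00786). These 3 proteases were on in all AML lines, with THP-1 the highest, and for genes listed at 0 the size of the difference depends on the pseudocount of 1. The eosinophil-type ribonuclease RNASE2 had 98.3, 234 and 793 TPM and 0 (8.05 ± 0.89), and AZU1, encoding azurocidin, 46.0, 806 and 537 TPM against 0.389 and 0.734 (7.46 ± 1.23, adjusted p = 0.0191).

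Of 23 granule genes 19 were tested, 6 were higher and none lower, with a list median of 5.48. The sixth was RNASE3, at 9.02, 15.0 and 24.9 TPM and 0 in endothelial lines. Several members that missed the test varied widely among the AML lines. MPO, myeloperoxidase, had 6987, 161 and 1.29 TPM and 0 in both endothelial lines (7.10 ± 3.05, adjusted p = 0.238), so that it ran from one of the highest levels of Kasumi-1 to near 1 TPM in THP-1. S100A8, a calprotectin subunit, had 0, 3836 and 299 TPM (6.15 ± 3.22, adjusted p = 0.32), with NOMO-1 high and Kasumi-1 at 0. SRGN, the granule proteoglycan serglycin, overlapped between the groups: it had 42.9, 457 and 2630.1 TPM against 974 and 1063, and CD63, a granule and lysosome membrane protein, 268, 1285 and 825 against 864 and 1022.

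Of the granule genes, AZU1, PRTN3 and ELANE sit together on chromosome 19. Along the 100 kb on each side of the ELANE start (GRCh38, GENCODE v29), looked at after the values were seen, 5 consecutive protein-coding genes of the table, PLPPR3, AZU1, PRTN3, ELANE and CFD, were all called higher in AML lines. PLPPR3, a lipid phosphatase-related gene best known from neurons, had 234, 368 and 255 TPM against 0.0608 and 0.0427 (8.06 ± 0.46, adjusted p = 0.00195), the most even of the 5 among the AML lines. CFD, the gene of complement factor D, had 138, 62.4 and 338 TPM against 4.27 and 0.0972 (5.90 ± 0.96, adjusted p = 0.0183). The flanking genes were expressed in every line and missed the test. On one side PTBP1, which encodes a splicing regulator, had 317, 236 and 309 TPM against 386 and 335 (-0.33 ± 0.42, adjusted p = 0.66), and on the other MED16, encoding a Mediator subunit, had 18.6, 146 and 46.7 against 42.2 and 30.6 (0.48 ± 0.87, adjusted p = 0.768). ELANE lies at 851014 to 856247 on the plus strand, and PLPPR3 at 812488 to 821977 on the minus strand.

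**Figure D2:**
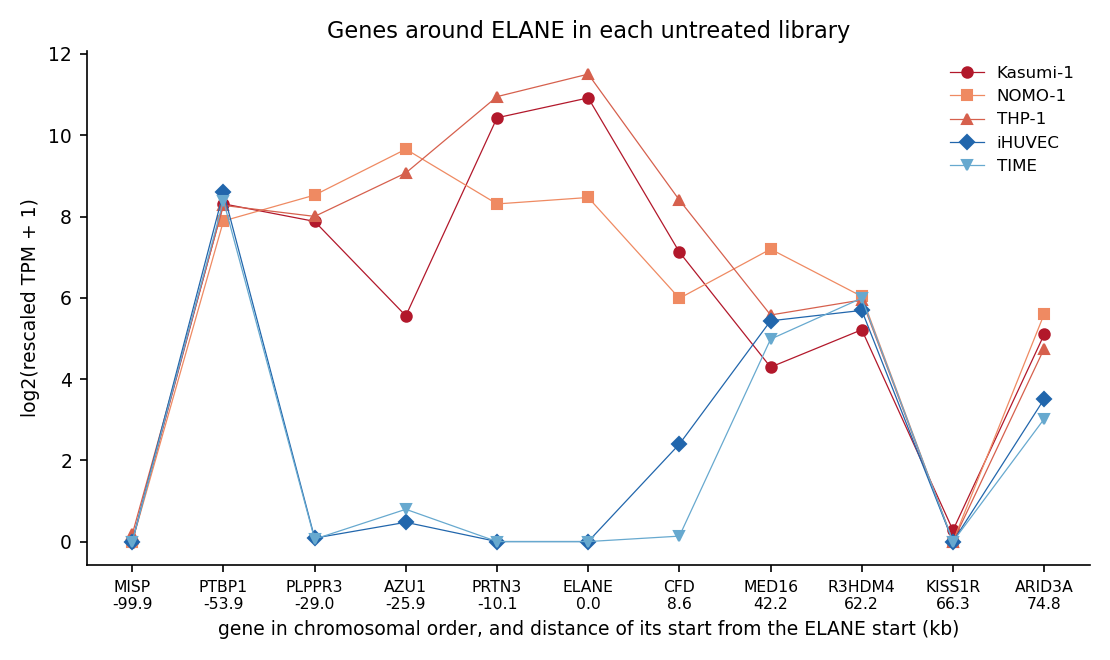
The vertical axis gives log2(rescaled TPM + 1) in each of the 5 untreated libraries, for genes in chromosomal order, with the distance of each start from the ELANE start in kb. From PLPPR3 to CFD the 3 AML lines lie above both endothelial lines, and at PTBP1, MED16 and R3HDM4 the groups overlap or lie close together.

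Other genes at the top of the AML side were of mixed function. S100A4, which encodes a calcium-binding protein, had 153, 2901 and 2178 TPM against 1.88 and 2.49 (8.29 ± 1.28, adjusted p = 0.0157), with Kasumi-1 well below the other AML lines. ARMH1 had 1019, 96.6 and 245 TPM and 0 in endothelial lines (8.18 ± 0.98). GTSF1, a gene best known from germ cells and piRNA silencing, had 254, 89.6 and 247 TPM and 0 (7.48 ± 0.62, adjusted p = 0.00309).

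Of 25 myeloid and hematopoietic transcription factors, 24 were tested, 7 were higher and 2 lower, with a list median of 2.60. SPI1, encoding PU.1, had 154, 388 and 476 TPM against 0 and 0.249 (8.10 ± 0.62, adjusted p = 0.00268) and was the leading member. MYB, a regulator of progenitor growth, had 145, 63.0 and 179 TPM against 0.334 and 0.186 (6.56 ± 0.61, adjusted p = 0.00384). The zinc-finger repressor GFI1 had 142, 39.7 and 148 against 0.362 and 0.0187 TPM (6.34 ± 0.73). IRF5 had 34.0, 58.7 and 91.8 TPM against 0 and 0.0913 (5.79 ± 0.61) and IKZF1, the gene of Ikaros, 55.6, 34.3 and 28.0 against 0 and 0.00889 (5.27 ± 0.56). CEBPA, the C/EBP factor of granulocyte and monocyte fate, had 8.43, 41.6 and 296 TPM against 0.269 and 0.0582 (5.41 ± 1.39, adjusted p = 0.0762) and missed the test, with its lowest AML level in Kasumi-1.

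The shared blood and endothelial regulators did not all stand with the myeloid side. TAL1 was lower in AML lines, at 0.735, 0 and 0.0521 TPM against 26.2 and 47.9 (-4.90 ± 0.58, adjusted p = 0.00739), as was GATA2, at 5.35, 6.38 and 8.73 against 57.3 and 86.3 (-3.21 ± 0.50, adjusted p = 0.0164). For both, all AML libraries lay below both endothelial libraries, as they did for 4331 of the 13542 tested genes (32%). LYL1, a relative of TAL1, was present everywhere, at 272, 239.5 and 116 TPM against 88.7 and 133 (0.85 ± 0.54, adjusted p = 0.4). RUNX1 had 94.9, 32.2 and 35.0 TPM against 8.66 and 16.7 (1.89 ± 0.66, adjusted p = 0.156) and LMO2 79.0, 133 and 140.2 against 44.7 and 21.5 (1.84 ± 0.53, adjusted p = 0.104). HHEX, which acts in both lineages, had 71.1, 25.9 and 19.4 against 156 and 75.8 and missed the test.

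Of 26 endothelial transcription factors, 22 were tested, 10 were lower in AML lines and none higher, with a median of -4.03. NR2F2, the venous regulator COUP-TFII, had 217 and 197 TPM in iHUVEC and TIME and 0.0289, 0 and 0.17 in AML lines (-7.61 ± 0.50, adjusted p = 0.00208). SOX18 had 157 and 114 TPM against 0, 0.287 and 0.582 (-6.74 ± 0.54), and EPAS1, encoding HIF-2 alpha, 154 and 158 against 0.837, 2.03 and 4.45 (-5.65 ± 0.62). FOXC2 and MECOM were listed at 0 in all 3 AML lines and stood at 41.4 and 35.5 and at 32.2 and 32.3 TPM in endothelial lines. ERG, an ETS factor that maintains endothelial identity, had 111 and 109 TPM in endothelial lines, 0 in NOMO-1 and 0.176 in THP-1, but 26.9 in Kasumi-1, and missed the test (-5.11 ± 1.49, adjusted p = 0.105). FLI1, its close relative, had 75.8, 19.2 and 50.3 TPM against 132 and 99.1. All AML lines were lower, as for 32% of tested genes, and the difference did not pass (-1.42 ± 0.66, adjusted p = 0.272).

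The ETS family as a whole split by member. Of 27 ETS genes 20 were tested: SPI1 was higher, and ETV1, ETV4 and ETV5, the PEA3 group, were lower, with a family median of -1.30. ETV4 had 0.182, 2.78 and 3.9 TPM against 52.5 and 57.6 (-4.32 ± 0.75, adjusted p = 0.0231) and ETV5 6.31, 3.54 and 5.8 against 37.0 and 33.7 (-2.58 ± 0.52). ELF1 and ELF2, broadly expressed members, had differences of -0.19 ± 0.71 and -0.29 ± 0.46 and missed the test.

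In promoters of tested genes, GAGGAAG was held by 20.4% of the 137 genes called higher that had a promoter in the table, against 14.4% of all 10265. The C/EBP pattern TTGCNNAA was held by 16.8% of the genes called higher and 7.02% of all, the RUNX core TGTGGTT by 5.84% and 3.02%, and the MYB pattern AACNGT by 22.6% and 17.5%. Among the 628 genes called lower, the TEAD core GGAATGT was held by 3.82% against 2.07% of all, the AP-1 pattern TGANTCA by 6.69% against 4.31%, the SOX core ATTGTT by 6.37% against 4.96% and the GATA pattern AGATAAG by 2.39% against 1.22%. Of genes called higher, 7.3% held ATTGTT and 2.19% AGATAAG, also above their share of all genes. TGANTCA (2.92%) and GGAATGT (0.73%) lay below theirs. With 137 genes called higher, such low shares rest on few genes, and a small gap from the share of all is no result. Of genes called lower, 8.28% held TTGCNNAA and 3.18% TGTGGTT, above their share of all. AACNGT (14.8%) lay below it there, and GAGGAAG slightly below. The ETS core CCGGAAG was rarer in both groups of called genes: 3.65% of genes called higher and 6.05% of those called lower, against 19.5% of all. Both strands were searched, GAGGAAG and CCGGAAG share their last 5 letters, and no test was made of these shares, since a match is a description of the letters.

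Signalling and cytoskeletal genes of leukocytes were the broadest group on the AML side. Of 40 such genes 39 were tested, 16 were higher and none lower, with a median of 4.20. MYO1F, a class I myosin, had 38.4, 354 and 141 TPM against 0.145 and 0.589 (6.54 ± 0.95, adjusted p = 0.0131). ARHGAP9, a GTPase-activating protein, had 62.1, 499 and 91.8 against 0 and 1.61 (6.47 ± 1.00). CORO1A, the leukocyte coronin, had 394, 523 and 395 against 5.62 and 5.81 (6.02 ± 0.41, adjusted p = 0.00218), with little spread among AML lines. The sialomucin gene SPN (CD43) had 63.0, 39.9 and 135 against 0.0694 and 0.188 (5.97 ± 0.66). Not every gene thought of as leukocyte-restricted parted the groups: ARHGDIB, a GDP-dissociation inhibitor of blood cells, had 1082, 977 and 1005 TPM against 669 and 993, and RAC2, a small GTPase, 176, 167 and 397 against 179 and 231 (0.16 ± 0.54, adjusted p = 0.88), and the groups overlapped in both.

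In many gene families one paralogue is typical of leukocytes and another is broad, and 26 such pairs were compared for the swap, the difference of the first minus that of the second. Both members passed the test in opposite directions in 7 pairs, only the leukocyte member was higher in 5, only the broad member lower in 4, and neither passed in 10. In all, 12 leukocyte members were higher and 11 broad members lower. None of the leukocyte members was lower and none of the broad members higher. Over all tested genes, 1.37% were higher and 6.23% lower in AML lines. The pairs were chosen with earlier results of these data known, so these counts do not stand for paralogues in general. The largest swap was of the parvins, which link integrins to actin. PARVG had 63.7, 1030.1 and 193 TPM against 0 and 0.0142 (7.87 ± 1.13, adjusted p = 0.013), and PARVA 0.167, 0.0705 and 1.66 against 45.5 and 57.1 (-5.12 ± 0.63, adjusted p = 0.00786), a swap of 12.99 log2.

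Integrin beta chains swapped by 11.87 log2. The leukocyte chain ITGB2 had 70.9, 627 and 182 TPM against 0.0675 and 1.38 (6.99 ± 0.97, adjusted p = 0.0116), while ITGB1 had 147, 3.97 and 20.6 against 684 and 802 and missed the test (-4.88 ± 1.34, adjusted p = 0.0905). In Kasumi-1 ITGB1 stayed above ITGB2. The WAVE-complex subunits swapped by 11.62 log2: NCKAP1L (HEM1) had 94.2, 45.9 and 61.6 TPM against 0.0953 and 0.0542 (5.93 ± 0.55), and NCKAP1 2.32, 0.319 and 0.108 against 86.6 and 86.8 (-5.69 ± 0.67). The unconventional myosins MYO1F and MYO1E swapped by 11.26 log2, with MYO1E at 0.225, 0.211 and 6.02 against 45.4 and 70.5 TPM (-4.72 ± 0.92, adjusted p = 0.0336). MYO1G and MYO1C swapped by 10.89 log2, with MYO1G at 48.2, 216 and 49.0 against 0 and 0.0199 TPM and MYO1C at 0.783, 9.28 and 12.4 against 140.3 and 153.

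The actin bundlers LCP1 (L-plastin) and PLS3 (T-plastin) swapped by 10.78 log2. LCP1 had 23.7, 268 and 222 TPM against 1.18 and 3.51 (5.19 ± 1.12, adjusted p = 0.046), and PLS3 33.2, 0.166 and 7.31 against 325 and 342 (-5.59 ± 1.34, adjusted p = 0.0628), and the pair was nearly level in Kasumi-1. The Rac activators DOCK2 and DOCK1 swapped by 10.77 log2, with DOCK1 listed at 0 in all AML lines and at 33.8 and 34.4 TPM in endothelial lines. WAS and WASL, encoding actin nucleation factors, swapped by 8.89 log2 and the coronins CORO1A and CORO1C by 8.40. Cortactin and its leukocyte relative parted on one side only: CTTN had 1.85, 0.186 and 0.538 TPM against 213 and 197 (-6.89 ± 0.59, adjusted p = 0.00332), whereas HCLS1 had 131, 273 and 167 against 55.2 and 204. FERMT3 and FERMT2, encoding kindlins that activate integrins, also parted on one side, with FERMT3 at 104, 363 and 87.9 against 71.3 and 97.4 TPM and FERMT2 lower in AML lines (-4.36 ± 0.92, adjusted p = 0.0423).

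The remaining pairs ranged down to a swap of -0.42 log2. PTPN6 (SHP-1) had 18.8, 958 and 195 TPM against 0.563 and 0.326 and just missed the test (6.75 ± 1.53, adjusted p = 0.0535). VAV1 was higher (5.27 ± 0.50) with VAV2 not passing (-0.99 ± 0.52, adjusted p = 0.319), and the same held for PLCG2 (3.12 ± 0.55) with PLCG1 and for RUNX3 (4.02 ± 0.62) with RUNX2. SASH3 with SASH1 differed on the broad side, SASH1 by -3.66 ± 0.77. No member passed in EVL and ENAH, CYTH4 and CYTH3, GMFG and GMFB, HK3 and HK2, CYFIP2 and CYFIP1, INPP5D and INPPL1, ARHGDIB and ARHGDIA, RAC2 and RAC1, PIK3CG and PIK3CB. The values of RAC2 and RAC1 gave a swap of 0.14 log2 and those of ARHGDIB and ARHGDIA 0.20. No source used here states how reads shared by paralogues were assigned.

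**Figure D3:**
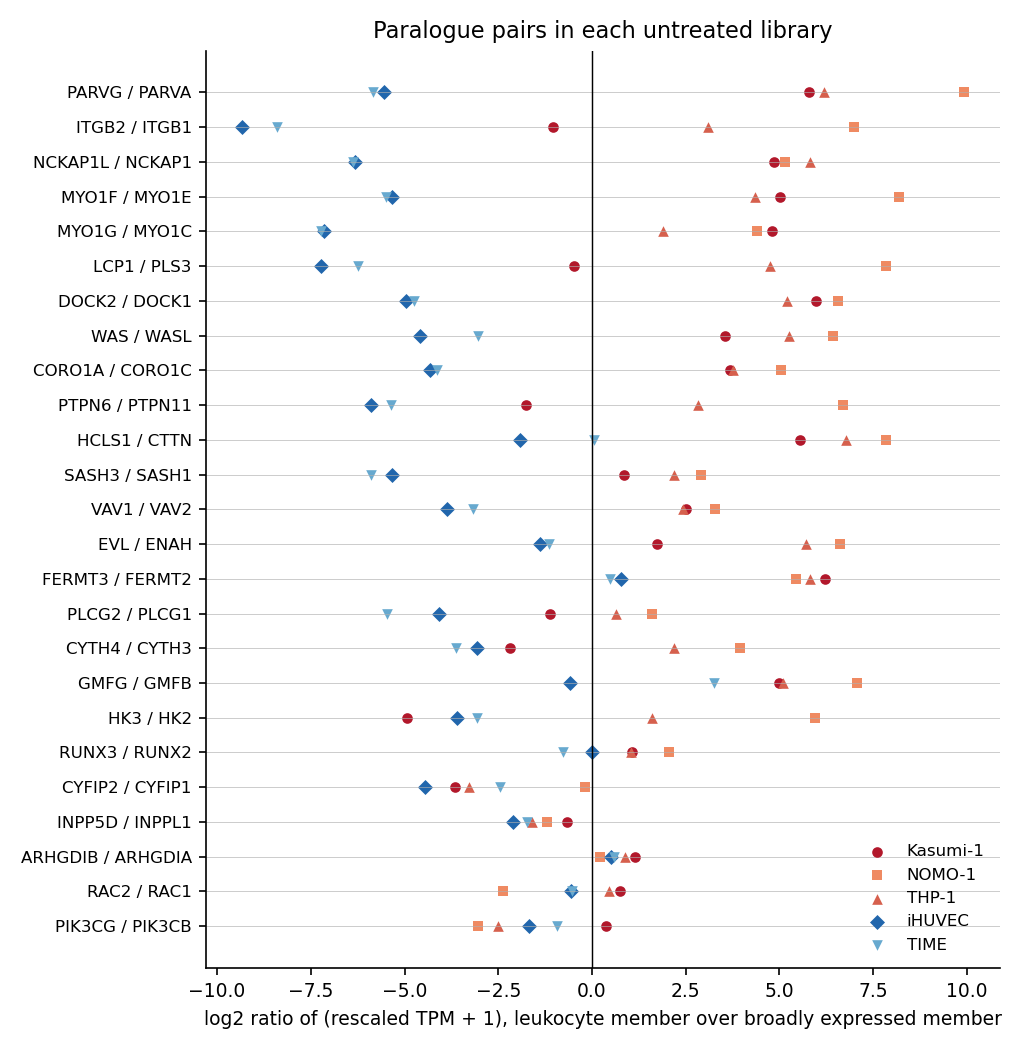
Each row is a pair of paralogues and each symbol a library, at the log2 ratio of (rescaled TPM + 1) of the leukocyte member over the broad member. At the top both endothelial lines lie far left and most AML lines right of 0, and at the bottom, for RAC2 and RAC1 among others, the groups overlap.

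Innate sensors and the phagocyte oxidase, which makes superoxide, gave 4 higher genes of 19 tested out of 26, with a median of 1.36. CYBA, the small membrane subunit, had 1131, 655 and 1952 TPM against 77.0 and 85.7 (3.78 ± 0.57, adjusted p = 0.0151). The cytosolic subunit NCF4 (6.85 ± 1.12) was higher as well, but NCF1 was at 1.4, 503 and 43.2 TPM against 0 and 0.111 and missed the test (5.16 ± 2.07, adjusted p = 0.212). NCF1 has near-identical pseudogenes, so its value is uncertain. TLR2, a sensor of bacterial lipoproteins, had 27.6, 52.5 and 16.9 against 0.134 and 0.27 TPM (4.65 ± 0.65). TLR4, the sensor of endotoxin, had 3.77, 1.34 and 1.07 against 20.9 and 14.1 and missed the test (-2.68 ± 0.62, adjusted p = 0.0559). All AML libraries lay below both endothelial libraries for TLR4, as for 32% of tested genes.

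Of 16 hematopoietic growth factor receptors, 15 were tested and 2 were higher, with a median of 1.51. CSF3R, the G-CSF receptor, had 129, 695 and 53.2 TPM against 0 and 0.217 (7.27 ± 1.07, adjusted p = 0.0139), and FLT3, a receptor kinase of progenitors, 5.62, 12.7 and 4.14 and 0 in endothelial lines (2.95 ± 0.60, adjusted p = 0.0385). KIT, the stem cell factor receptor, was high in Kasumi-1 only: 250.4, 0.753 and 2.94 TPM against 0.222 and 1.96 (2.66 ± 2.09, adjusted p = 0.481). The monocyte receptor CSF1R had 3.52, 42.2 and 13.2 TPM and 0 in endothelial lines, and missed the test (3.81 ± 0.98, adjusted p = 0.0762).

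On the endothelial side, 20 of 33 vascular growth factor receptors and ligands were lower in AML lines (32 tested, none higher, median -4.19). TIE1, an orphan receptor of the angiopoietin system, had 498 and 402 TPM in iHUVEC and TIME against 0.452, 2.75 and 0.218 (-7.90 ± 0.65, adjusted p = 0.00294). KDR, the main VEGF receptor, had 88.1 and 149.5 against 0.016, 0 and 0 (-6.85 ± 0.54, adjusted p = 0.00268), and ROBO4, a guidance receptor, 181 and 338 against 0.13, 0 and 0.0446 (-7.88 ± 0.55). S1PR1, which senses sphingosine 1-phosphate, had 115 and 124 against 0, 0.119 and 0 (-6.86 ± 0.50), and NRP2, a VEGF co-receptor, 136 and 122 against 0.0196, 1.35 and 0.124 (-6.54 ± 0.60). VEGFA itself did not pass the test, at 29.2, 61.7 and 21.1 TPM in AML lines and 17.3 and 12.9 in endothelial lines (1.12 ± 0.60, adjusted p = 0.329). All AML libraries lay above both endothelial libraries, as for 13.5% of tested genes.

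Junction genes were lower in 15 of 27 cases (24 tested, none higher, median -4.01). MCAM, an adhesion molecule also named CD146, had 1077 and 1472 TPM against 0.442, 0.754 and 0.142 (-9.79 ± 0.49, adjusted p = 0.00173). CDH5, VE-cadherin, had 476 and 519 TPM and was listed at 0 in all AML lines (-8.96 ± 0.48, adjusted p = 0.00182). CLDN5, a tight-junction claudin, had 297 and 98.4 against 0.119, 0 and 0.109 (-7.32 ± 0.65), and the gap-junction gene GJA1 164 and 164 against 0, 0.872 and 0 (-7.07 ± 0.56). PECAM1, found on endothelium and also on leukocytes, kept 2.67, 34.8 and 27.3 TPM in AML lines against 641 and 592 (-5.32 ± 1.02, adjusted p = 0.0318). The catenin gene CTNNB1, which also has a nuclear role, had 77.8, 39.0 and 76.0 against 191 and 213 and missed the test (-1.70 ± 0.49, adjusted p = 0.102).

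Among the lists of function, the matrix list had the most negative median, -5.41, with 28 of 49 genes lower (41 tested, none higher). EFEMP1, a fibulin, had 1555 and 2519 TPM against 0, 0.368 and 0 (-10.80 ± 0.50, adjusted p = 0.00173). MMP1, interstitial collagenase, had 1729 and 1345 against 0.0486, 0 and 0.0237 (-10.54 ± 0.46), THBS1, thrombospondin-1, 1049.6 and 1592 against 0.00557, 0.506 and 0.054 (-10.11 ± 0.50), and FN1, fibronectin, 1025 and 1232 against 0.645, 2.55 and 0.545 (-9.08 ± 0.56, adjusted p = 0.00208). In each of these the AML lines stayed at or below 2.55 TPM. SPARC, a collagen-binding glycoprotein, had 1959 and 2093 TPM in endothelial lines but 207, 1.03 and 0 in AML lines, and with Kasumi-1 high it missed the test (-8.08 ± 2.21, adjusted p = 0.0905). TIMP1, an inhibitor of metalloproteinases, was high in all: 122, 386 and 258 TPM against 395 and 215.

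Integrins split by chain. Of 26 genes 20 were tested, 7 were lower and ITGB2 was higher, with a median of -1.17. ITGB5 had 94.1 and 273 TPM in endothelial lines against 0.03, 0 and 2.74 (-6.69 ± 0.85), ITGA2 42.1 and 67.1 against 0.558, 0 and 0.0911 (-5.51 ± 0.55) and ITGB3 69.9 and 22.2 against 0.0898, 0.406 and 0.124 (-5.08 ± 0.65). ITGA5, the fibronectin receptor chain, remained at 158, 44.8 and 131 TPM in AML lines against 874 and 892 (-3.16 ± 0.64, adjusted p = 0.0368). The alpha partners of ITGB2 did not pass with it: ITGAL had 0.396, 183 and 19.7 TPM and 0 in endothelial lines (4.13 ± 1.90, adjusted p = 0.271) and ITGAM 0.141, 50.6 and 7.37 against 0 and 0.0204, both high in NOMO-1 and under 1 TPM in Kasumi-1.

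Of 42 genes of caveolae, stress fibres and the YAP/TEAD (Hippo) output, 40 were tested and 24 were lower, none higher, with a median of -3.46. CAV1, the main coat protein of caveolae, had 744 and 1038 TPM against 0.272, 0 and 0.433 (-9.49 ± 0.49, adjusted p = 0.00179), and CAVIN1, which shapes them, 769 and 803 against 0.998, 0 and 0.0123 (-9.28 ± 0.55). The YAP/TEAD targets CCN2 (836 and 1496 against 0.181, 1.06 and 0.273 TPM, -9.58 ± 0.55), CCN1 (-8.41 ± 0.68) and ANKRD1 (-8.19 ± 0.50) were lower together, and so were the coactivators WWTR1 (-6.91 ± 0.53) and YAP1 (-4.90 ± 0.52). Those chosen for high level among the genes not called were FLNA (filamin A) at 48.5, 884 and 84.6 against 524 and 985 TPM, LMNA (lamin A and C) at 6.33, 43.2 and 132 against 662 and 959 and MYH9 (non-muscle myosin heavy chain) at 132, 35.4 and 108 against 361 and 748. These 3 were also held by AML lines, with FLNA in NOMO-1 at the endothelial level.

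Outside these lists, the top genes on the lower side included CD9, a tetraspanin, at 2140.0 and 1119 TPM against 0.0578, 1.56 and 0.442 (-9.94 ± 0.60, adjusted p = 0.00208). S100A16, a calcium-binding protein, had 727 and 926 TPM and was listed at 0 in all AML lines (-9.68 ± 0.48), in contrast to S100A4 on the other side. TGM2, tissue transglutaminase, had 1161 and 671 against 0.013, 0.144 and 0.0776 (-9.68 ± 0.51).

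Coagulation and vascular tone genes were lower in 12 of 27 cases (26 tested, none higher, median -3.80). EDN1, the vasoconstrictor endothelin-1, had 188 and 245 against 0.117, 0.622 and 0 (-7.47 ± 0.54) and ECE1, which activates it, 367 and 542 against 3.96, 2.14 and 2.83 (-6.84 ± 0.49). VWF, the platelet adhesion factor of Weibel-Palade bodies, was lower (-6.67 ± 0.97, adjusted p = 0.0132) though the endothelial lines differed, with 309 TPM in iHUVEC and 32.8 in TIME. NOS3, endothelial nitric oxide synthase, had 155 and 77.7 against 8.4, 0 and 6.32 and just missed the test (-4.75 ± 1.06, adjusted p = 0.0514).

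Chemokines and cytokines went both ways: of 38 genes 25 were tested, 6 were lower and 2 higher, with a median of -1.07. BMP6, a regulator of iron and bone, had 142 and 119 TPM in endothelial lines against 0.0648, 0.0992 and 0.0354 (-6.94 ± 0.50), and GDF15, a stress cytokine, 129 and 221 against 0.32, 0.856 and 0.774 (-6.70 ± 0.55). CCL5, which attracts T cells, was higher in AML lines, at 77.5, 341 and 162 TPM against 4.83 and 7.51 (4.54 ± 0.70, adjusted p = 0.0158), as was IL18, at 15.6, 24.8 and 14.9 against 0.119 and 0.284 (3.98 ± 0.54, adjusted p = 0.011). MIF was high in every line and did not differ past the test, at 1950.3, 535 and 1910.2 against 1369 and 1189 TPM.

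**Figure D4:**
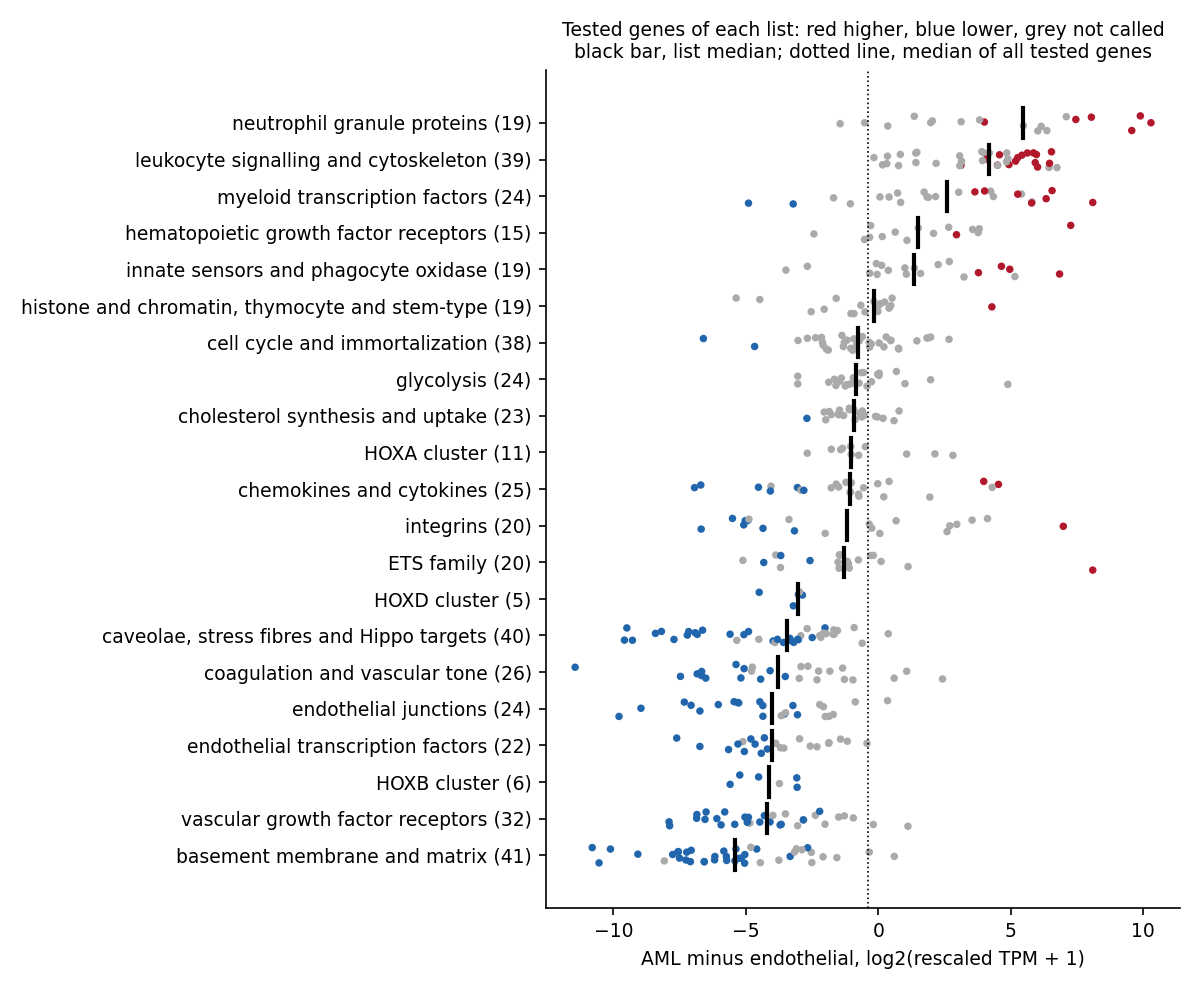
Each point is a tested gene of a list at its AML minus endothelial difference in log2(rescaled TPM + 1), with the number of tested genes in brackets, and red and blue mark calls. Granule and leukocyte lists have medians of 5.48 and 4.20, matrix genes one of -5.41, and glycolysis and cholesterol genes medians of -0.83 and -0.93, below that of all tested genes (-0.38, dotted).

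Lists of cell cycle, metabolic and chromatin genes had called shares near or under the 7.61% of all tested genes, so their counts are no result about these lists. Their medians were -0.75 for cell cycle and immortalization, -0.83 for glycolysis, -0.93 for cholesterol and -0.16 for chromatin genes, beside -0.38 over all tested genes. Of 38 tested cell cycle and immortalization genes (39 listed), 2 were lower, CCND1 (cyclin D1) at 3.63, 0.0932 and 1.35 TPM against 241 and 202 (-6.60 ± 0.72, adjusted p = 0.00584) and the inhibitor gene CDKN1A at 0.519, 4.55 and 9.94 against 68.8 and 188 (-4.67 ± 0.96, adjusted p = 0.039). None of the 24 glycolysis genes passed, and GAPDH was at 2423, 1239 and 1895 TPM against 7717 and 5534 (-1.87 ± 0.56, adjusted p = 0.113). Of 23 tested genes of cholesterol synthesis and uptake, only STARD4, encoding a sterol carrier, was lower (-2.69 ± 0.54, adjusted p = 0.036). Of 19 tested genes of chromatin, thymocyte and stem-cell type, SATB1, a chromatin organiser, was higher, at 74.1, 11.6 and 88.4 TPM against 1.3 and 1.19 (4.29 ± 0.94, adjusted p = 0.0488). With 3 against 2 lines, a missed test does not show equal levels.

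Several known genes were high in single lines. MYC was at 499.8, 63.1 and 143 TPM in AML lines against 129 and 109, with Kasumi-1 highest (0.48 ± 0.87, adjusted p = 0.771). RUNX1T1, the fusion partner in Kasumi-1, was at 46.4 TPM there, at 8.36 in iHUVEC and at 0 in the other 3 libraries. TERT, the telomerase catalytic subunit, was at 976 TPM in TIME and 0.0291 in iHUVEC, with 6.6, 8.07 and 6.87 in AML lines, and CDKN2A, the gene of p16, at 742 TPM in iHUVEC and 0.758 in TIME. MYCN stayed at or below 2.55 TPM.

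HOX genes, which carry positional identity, differed by cluster. None of the 11 HOXA genes passed: NOMO-1 had 91.7 TPM of HOXA9, THP-1 50.4 and Kasumi-1 2.35, against 145 and 16.9 in iHUVEC and TIME (-1.02 ± 1.60, adjusted p = 0.731). In the HOXB cluster 5 of the 6 tested genes were lower in AML lines. HOXB7 was the highest, at 61.7 and 70.8 TPM in endothelial lines, 0 in Kasumi-1 and NOMO-1 and 1.69 in THP-1 (-5.59 ± 0.66, adjusted p = 0.00722). In the HOXD cluster 4 of 5 tested genes were lower, led by HOXD8 at 23.0 and 25.5 TPM against 0.396, 0 and 0 (-4.50 ± 0.50, adjusted p = 0.00602). HOXD13 was listed above 0 only in Kasumi-1, at 13.2 TPM, and no HOXC gene was tested, since they reached 1 TPM in iHUVEC alone, with HOXC9 at 7.98 TPM.

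**Figure D5:**
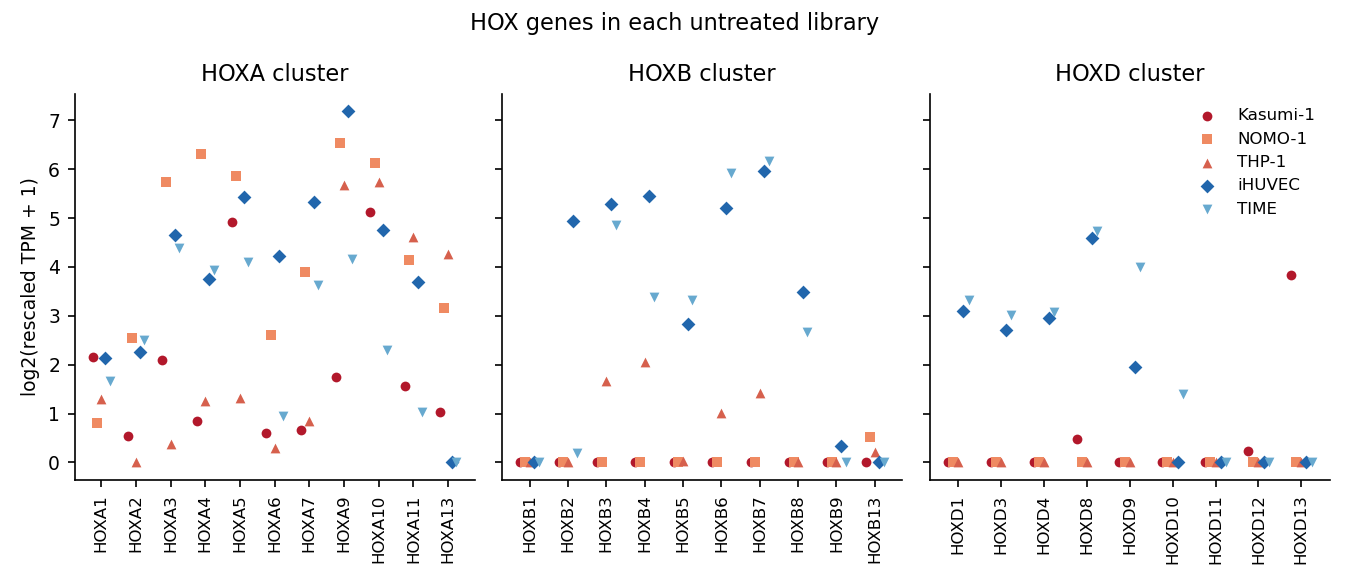
Each symbol is a library at log2(rescaled TPM + 1) of a HOX gene, in 3 panels for the HOXA, HOXB and HOXD clusters. HOXA genes are mixed between groups. HOXB3 to HOXB8 and HOXD1 to HOXD9 lie higher in both endothelial lines than in Kasumi-1 and NOMO-1, where they are at or near 0. HOXD9 is at only 2.85 TPM in iHUVEC and 15.0 in TIME, and 4 HOXB genes reach 1 TPM in THP-1.

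Markers of other cell types were read for both groups. The 12 monocyte markers reached 1 TPM in 12 cases in NOMO-1, 6 in THP-1, 4 in Kasumi-1, 4 in iHUVEC and 2 in TIME, and summed to 1384, 873, 67.3, 20.9 and 26.4 TPM. FCGR1A alone among them was higher in AML lines, at 43.0, 61.7 and 207 TPM and 0 in endothelial lines (6.38 ± 0.77, adjusted p = 0.00756). Of 8 progenitor markers, MYB and FLT3 were higher and GATA2 lower. Of 13 fibroblast and mural markers, 8 were under 1 TPM everywhere, but RGS5, a pericyte gene, was at 1037 TPM in iHUVEC and 4.59 in TIME. The lymphatic marker PDPN was at 232 TPM in TIME and 0 in iHUVEC, and LYVE1 at 11.2 and 18.6 TPM in both, listed at 0 in AML lines (-3.95 ± 0.49, adjusted p = 0.00797). Globin genes, otherwise under 1 TPM, were present in TIME alone, with HBA1 at 177, HBA2 at 222 and HBB at 342 TPM, while the erythroid gene ALAS2 was under 1 TPM in all 5 libraries. Of 12 epithelial markers 6 were under 1 TPM everywhere, KRT18 was at 395 and 268 TPM in endothelial lines against 0, 4.8 and 0.139 (-7.44 ± 0.88, adjusted p = 0.00738) and EPCAM at 129 TPM in Kasumi-1. Of 12 lymphoid markers none passed the test, and NKG7 reached 136 TPM in NOMO-1.

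Beyond levels, transcript usage, the percent of a gene's TPM in a given transcript, was tested for 13106 transcripts of 5175 genes with shares from 10 to 90%. None passed with limma (0% called), the smallest adjusted p being 0.590, and 609 had an unadjusted p under 0.05. The 3 AML libraries lay wholly on one side of the endothelial libraries for 4598 transcripts (35.1%). From these, transcripts with an unadjusted limma p under 0.01 were ranked by the difference of group means. Some near the top, of genes of cell shape and vessels, were chosen after their values were seen and are described. None of them passed the adjusted test. EGFL7-202 held 91.7, 100 and 96.2% of the TPM of EGFL7, a vascular secreted protein, in AML lines and 16.4 and 21.2% in endothelial lines. FNBP1-202, of a membrane-bending protein, held 1.45, 0 and 0% in AML lines and 62.3 and 76.9% in endothelial lines. MRTFA-201, of an actin-regulated coactivator, held 13.6, 0 and 5.91% and 70.1 and 61.9%, and DIAPH1-202, of a formin that builds actin filaments, 44.0, 4.99 and 14.1% and 79.5 and 79.6%. In all 4 the groups did not overlap, which follows from how they were chosen.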

How the data were processed

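RNA of untreated cells was sequenced on an Illumina platform, per the labels' protocols. The authors deposited TPM values for 35168 genes and 170068 transcripts, and the submitters' processing notes name Salmon 1.2.0, DESeq2 1.28.1 and the GRCh38.p13 build, with no role stated. The 15 other value columns of each table were not used. TPM keeps no total, so no counting interval was given.

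The 13 mitochondrial genes were removed and each library was rescaled to 1 common total. Values were analysed in R 4.3.3 as log2(TPM + 1). Genes with at least 1 TPM in at least 2 of the 5 libraries were tested by limma 3.58.1 with a variance trend and Benjamini-Hochberg adjustment over all tested genes. The fit had 3 residual and 3.16 prior degrees of freedom. On this scale the fold of a gene near 1 TPM comes out too small. Transcript shares were tested likewise, without the trend, in genes of at least 5 TPM. The fits were also run on simulated data as a check of the code, which does not show how many real differences were missed. Python 3.11.15 with pandas 2.3.3 served for tables, and matplotlib 3.10.9 for figures. Symbols came from a table of gene names (35051 IDs) and GENCODE v29 (110), and promoters from RefSeq.

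The comparison of these lines was proposed, and the gene lists, pairs and motifs were chosen, with earlier results of these data known. By a rule, the text names the 10 called genes of largest difference in each direction, up to 5 called and 3 abundant uncalled genes per list, every pair, and MYC, TERT, RUNX1T1, MYCN and the HOX clusters. Other genes were chosen after their values were seen. A few genes and 1 pair that the rule gives are not reported here. Alternatives changed scaling, pseudocount, filter and variance model, or left out each line.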

Additional observations from a re-analysis of the deposited data

How the results depend on the processing

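No named gene changed direction while called, and no call was opposite under any of 14 alternatives. Without a filter on low values 554 genes were called, 81 higher and 473 lower, with more genes tested (21418). Leaving out 1 line at a time gave 9 to 1625 genes, 6 to 408 higher and 3 to 1217 lower, the fewest without iHUVEC and the most without Kasumi-1, and for THP-1 469 (94 higher and 375 lower). Beyond the number of lines, the cause was not tested. Without any 1 AML line, 421 of the 1030 calls were kept throughout, and 9 were kept under every alternative. Scaling moved the median over all tested genes from -0.38 to -0.88 for TPM as deposited, -0.07 for median-of-ratios scaling, 0.07 for quantile normalization and -0.21 without ribosomal protein genes. The split was 233 higher and 593 lower under quantile normalization, and 662 calls were kept under all 4 scalings. Without Kasumi-1, NOMO-1, THP-1, iHUVEC and TIME in turn, the matrix list had 31, 32, 19, 1 and 2 lower genes (28 with all lines), the vascular receptors 22, 21, 11, 0 and 0 (20), and the leukocyte signalling list 25, 14, 8, 0 and 0 higher genes (16). The HOXA cluster had 3 lower genes without NOMO-1 and 1 higher without Kasumi-1. Of the 110 called genes that the naming rule gave or that were added for their values, 7 kept their call under every alternative. No transcript passed under any alternative, with unadjusted p under 0.05 for 77 transcripts without iHUVEC up to 4016 without Kasumi-1. No paired analysis was possible because the AML and endothelial lines are different lines whose numbers only name them. Depth is unknown, and 3 against 2 lines limit every test.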
